A study of Mus musculus with 95 samples.

Results

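Lung homogenates of C57BL/6 mice housed for 21 days with a mouse infected with Pneumocystis murina were compared with those of unexposed mice killed on the same day. The arrays were chosen by the strain, day and exposure in their titles, which gave 6 exposed and 5 unexposed mice, 11 of the 95 arrays of the series. The series also holds CD40L-KO mice, whose spread enters the day 32 fit and the fit of all 95 arrays below. All 11 mice were female and 8 weeks old per the labels, with no transgene or deleted gene, and each gave total RNA for 1 biotin-labelled expression array. The mice belonged to an experiment of 5 cages with 9 to 10 animals each, 3 of them exposed and 2 unexposed, from which 1 to 3 animals a cage were taken on each of days 7, 14 and 21. The labels do not give the cage of a mouse. Effects of cage and of exposure cannot be told apart here, and each mouse was treated as an independent sample.

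Pneumocystis is a fungus that attaches to the epithelium of the alveoli and passes between hosts through the air. A mouse with a working immune system clears it after a delay, with CD4 T cells, antibody from plasma cells and alveolar macrophages taking part. IgA is the antibody class of mucosal surfaces, CCL5 is a chemokine that activated T cells and natural killer (NK) cells release, and S100A8 with S100A9 forms calprotectin, a zinc- and manganese-binding protein of neutrophils and monocytes.

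Levels are log2(intensity + 8), on which the offset sets a floor of 3, and a difference is the mean of the exposed minus the mean of the unexposed arrays on that scale, which understates differences of dim genes. Median intensities of the 11 arrays lay between 38.4 and 45.9, and correlations among their 55 pairs between 0.929 and 0.987. Lung markers were high on every array, with the surfactant gene Sftpc at 12.56 to 13.82 and the club cell gene Scgb1a1 at 12.30 to 13.51. The X-inactivation transcript Xist lay at 7.22 to 9.32 and the Y-linked Eif2s3y at 3.06 to 3.67. In such homogenates fewer cells of a type and less RNA per cell cannot be told apart.

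Some arrays carried transcripts of other tissues, and these were spread unevenly over the groups. A score over 9 squamous epithelium genes, among them the keratins Krt4 and Krt13, was 7.71 and 7.45 in unexposed replicates 1 and 4 and 6.49 in exposed replicate 3, against 4.51 to 4.77 in the other 8 arrays. The same 3 arrays had skeletal muscle scores of 8.18, 8.06 and 6.94, against 3.81 to 4.89 in the rest. Ucp1, the uncoupling protein that defines brown fat, was 9.50, 8.09 and 8.50 in unexposed replicates 1, 2 and 4, against 3.38 to 4.04 in the other 8 arrays, the 6 exposed ones included. Results are therefore also given without the squamous arrays (those 3 and 1 each of days 7 and 14 with squamous scores above 6, with 5 exposed and 3 unexposed left at day 21), without the Ucp1 arrays (the 3 of day 21 with Ucp1 above 6, with 6 and 2 left), and with the squamous, muscle and fat scores as covariates (the 3 tissue scores). As a sign of RNA quality, the Gapdh 3' over 5' probe set ratio on the log2 scale spanned -0.18 to 0.68 in exposed and -0.17 to 0.61 in unexposed arrays. Its median was higher in exposed arrays, 0.49 against 0.13.

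**Figure D1:**
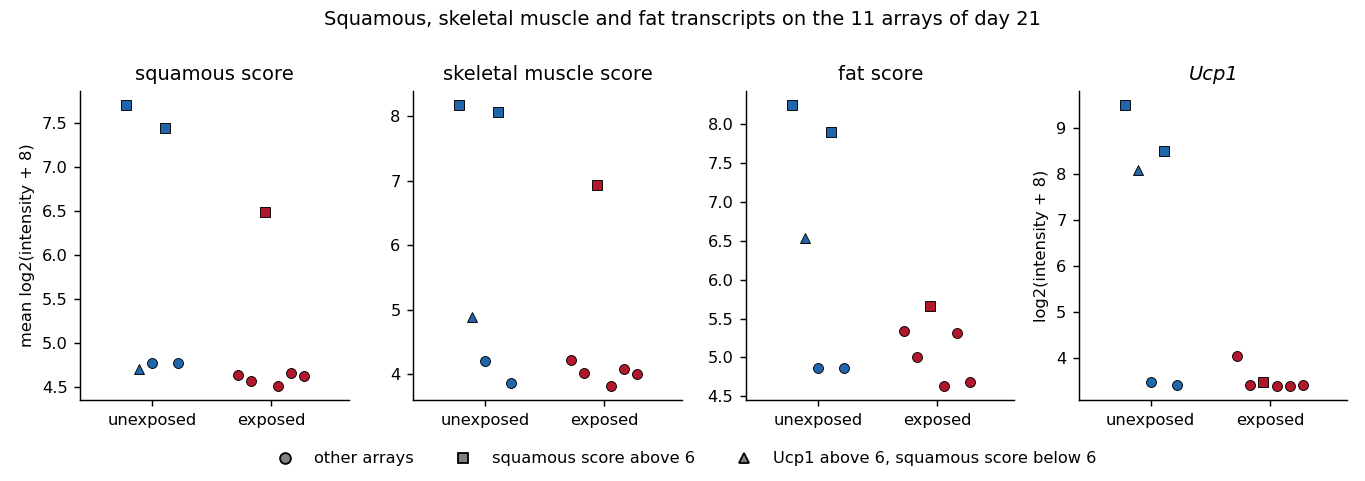
Mean log2(intensity + 8) of 9 squamous, 10 skeletal muscle and 14 fat genes, and Ucp1 alone, with 1 point for each of the 6 exposed and 5 unexposed arrays of day 21. Squares are the 3 arrays with squamous scores above 6, and the triangle is unexposed replicate 2. Ucp1 lay between 8.09 and 9.50 in 3 unexposed arrays and at most at 4.04 in the others.

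With Benjamini-Hochberg adjustment over 8252 genes, limma called 0 genes (0%) at adjusted p under 0.05. The smallest adjusted p, 0.0584, was shared by Igha, Ccl5, Selplg and Dio2. At an unadjusted p under 0.05, 957 genes stood apart, 11.6% of those tested, of which 505 (6.12%) were higher and 452 (5.48%) lower in exposed lungs. Every exposed array lay above every unexposed array for 40 genes (0.485%) and below for 24 (0.291%). Of the 40 genes, 30 were brighter than the median gene, and of the 24, 4 were. Leaving out exposed replicate 3 gave 7 called genes, leaving out unexposed replicate 1, 2, 3 or 4 gave 1 each and leaving out unexposed replicate 5 gave 2. The fit takes its spread from the arrays of days 7 and 14 too, and leaving out unexposed replicate 4 of day 14, which had a squamous score of 7.82, gave 9. Over 53 alternatives Igha was called under 13, Ccl5 and Selplg under 7 each and Dio2 under 6. The gene levels and differences of day 21 given from here on are therefore measurements that did not pass the adjusted test. For the list counts below, the shares over all genes were 6.12% higher, 5.48% lower and 51.5% above 0. They were 3.65% higher and 6.16% lower without the squamous arrays, and 2.4% and 4.23% without the Ucp1 arrays. With the 3 tissue scores they were 2.98% and 4.06%.

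Igha (Entrez gene 238447), the constant region of the IgA heavy chain, had the smallest p. In exposed mice its level ran from 7.63 through a median of 7.92 to 9.01, and in unexposed replicates 1 to 5 it was 7.49, 6.23, 6.60, 5.95 and 6.45. The groups did not overlap, and the highest unexposed array was replicate 1, which carried squamous and fat transcripts. The difference was 1.57 (SE 0.31, unadjusted p = 1.42e-05), from means of 8.11 ± 0.51 (SD, n = 6) and 6.55 ± 0.58 (SD, n = 5). It was 1.74 without the squamous arrays, 1.59 without the Ucp1 arrays and 1.72 with the 3 tissue scores, where limma called it (adjusted p = 0.048). Over all alternatives its adjusted p in limma ran from 0.00024 to 0.392. A pair of dimmer probe sets for the same gene differed by 0.19 and -0.10, and the mean of its probe sets by 0.55. Immunoglobulin genes are alike in sequence, so which of them the bright probe set reads is uncertain.

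With all arrays, most other antibody genes were not higher along with Igha. Of 15 measured plasma cell and antibody genes, 5 (33.3%, against 51.5% of all genes) differed by more than 0, with a median of -0.10. Igha was the only 1 with an unadjusted p under 0.05. Without the squamous arrays the list median was -0.04, and without the Ucp1 arrays 0.01. With the 3 tissue scores it was 0.05, with 2 genes higher and 1 lower. Ighm, the IgM heavy chain, was 11.01 and 10.22 in unexposed replicates 1 and 4 and between 8.67 and 9.54 on the other 9 arrays. Jchain, which links IgA and IgM into polymers, was likewise highest in those mice, at 7.87 and 7.27, against 5.61 to 6.76 elsewhere. Those are the unexposed arrays with squamous and fat transcripts. Their difference was -0.43 for Ighm and -0.21 for Jchain with all arrays, and 0.18 and 0.45 without the squamous arrays. Among 15 dimmer probe sets annotated to Ighm, 1 differed by 1.58, from 5.38 to 6.97, and the others by -0.25 to 0.19. Pigr, the receptor that carries polymeric IgA across epithelium, averaged 8.66 in exposed and 8.80 in unexposed mice.

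Ccl5 (Entrez gene 20304) was 6.61, 7.46, 6.81, 6.90 and 7.57 in unexposed replicates 1 to 5 and ran from 7.83 through a median of 8.21 to 8.53 in exposed mice. The groups did not overlap, and the lowest exposed array was the one with squamous transcripts. The difference was 1.12 (SE 0.23, unadjusted p = 2.22e-05), and it was 0.99 without the squamous arrays, 1.00 without the Ucp1 arrays and 0.82 with the 3 tissue scores. Selplg (20345), which encodes the ligand that leukocytes use to roll on selectins, was 7.82, 8.00, 8.08, 7.80 and 8.09 in unexposed and 8.35 to 8.80 in exposed mice, with a median of 8.50. Its difference of 0.58 (SE 0.12, unadjusted p = 2.83e-05) exceeded the SD within either group, 0.19 and 0.14, and it was 0.53, 0.46 and 0.40 under those 3 settings. Selplg was named after its values were seen.

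**Figure D2:**
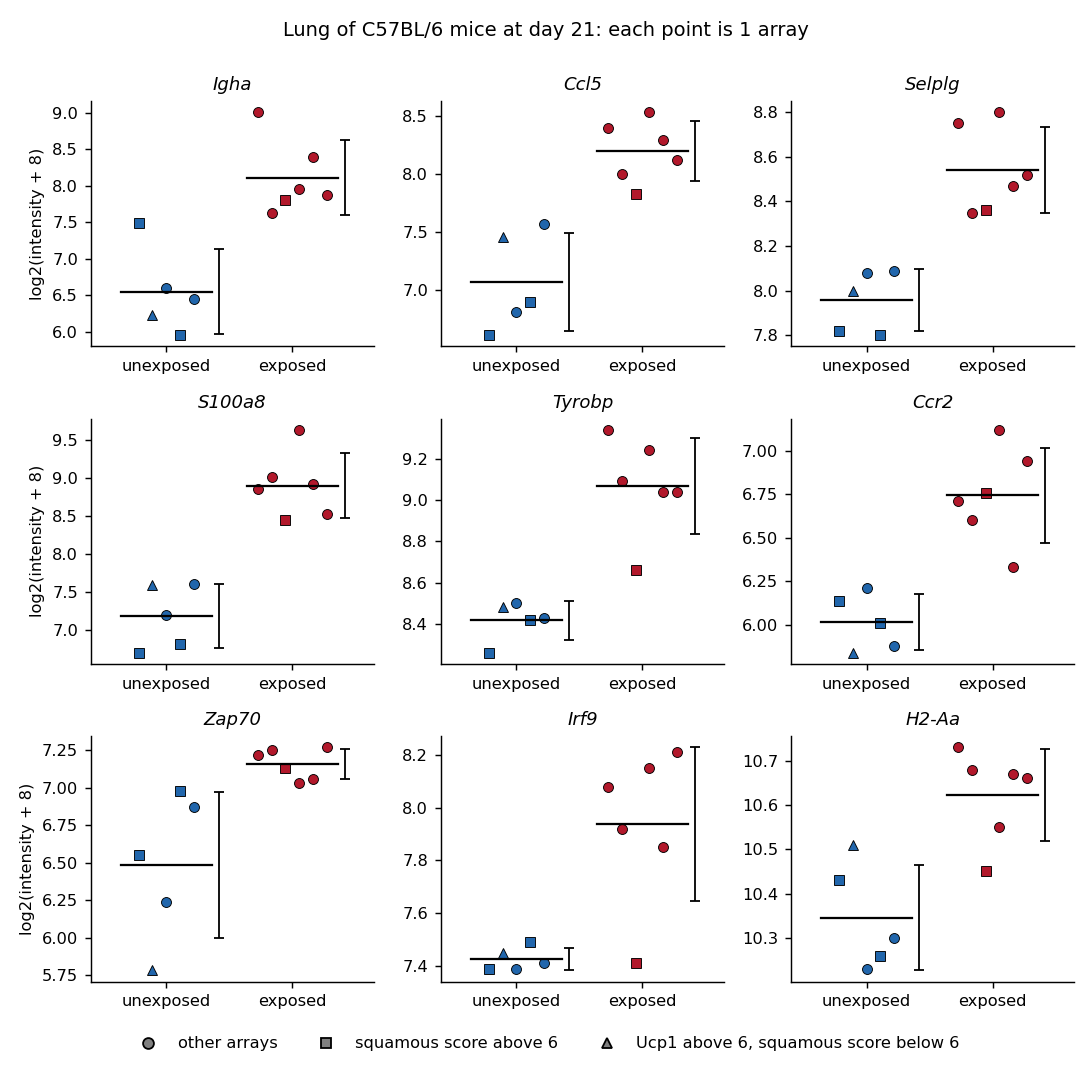
Levels of 9 genes on each array of day 21, as log2(intensity + 8) on axes that do not start at 0; lines are group means and bars SDs (6 exposed, 5 unexposed). Squares have squamous scores above 6, and triangles Ucp1 above 6 with a squamous score below 6. The groups are apart for Igha, Ccl5, Selplg, S100a8, Tyrobp, Ccr2 and Zap70 and overlap for Irf9 and H2-Aa.

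S100a8 had the largest positive difference of the 8252 genes, ahead of Igha, and its partner S100a9 followed them. S100a8 (Entrez gene 20201) was 6.70, 7.59, 7.20, 6.82 and 7.61 in unexposed mice and ran from 8.44 through a median of 8.88 to 9.63 in exposed mice. S100a9 (20202) was 6.17, 6.23, 6.13, 6.25 and 6.71 against 7.23 to 8.38, with a median of 7.63. Neither gene's groups overlapped. The differences were 1.71 (SE 0.43, unadjusted p = 0.000356) and 1.41 (SE 0.40, unadjusted p = 0.00127). When only the 11 arrays of day 21 were fitted, limma called this pair and no other gene. With the 3 tissue scores the differences were 1.22 and 1.18. The unexposed mice of day 21 had a lower S100a8 mean, 7.18 ± 0.42 (SD, n = 5), than those of day 7, 8.39 ± 0.59 (SD, n = 4), or day 14, 7.84 ± 0.75 (SD, n = 6), and the exposed mean of 8.90 was close to the 8.89 of exposed mice at day 7. Against all 15 unexposed arrays of these days the difference was 1.13 for S100a8 and 0.88 for S100a9.

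Of 18 neutrophil genes measured, 4 (22.2%, against 6.12% of all genes) were higher at an unadjusted p under 0.05 and 1 was lower. The list median was 0.10, against 0.01 for all genes. Of 33 monocyte and macrophage genes, 7 (21.2%) were higher and 1 lower, with a median of 0.11. Without the squamous arrays 5 were higher and 3 lower, where 3.65% and 6.16% of all genes were. Without the Ucp1 arrays 3 were higher and 0 lower (2.4% and 4.23% of all genes), and with the 3 tissue scores 3 and 1 (2.98% and 4.06%). Tyrobp (22177), the signalling adaptor DAP12 of myeloid and NK cells, was 8.26, 8.48, 8.50, 8.42 and 8.43 in unexposed mice and 8.66 to 9.34, median 9.06, in exposed mice, a difference of 0.65 (SE 0.17, unadjusted p = 0.000397). Exposed replicate 3, with squamous transcripts, was the lowest of the exposed arrays and still above every unexposed one. Ccr2 (12772), the chemokine receptor of inflammatory monocytes, lay at 6.33 to 7.12 in exposed mice, against 5.84 to 6.21 in unexposed ones and differed by 0.73 (SE 0.23). Mpeg1, a pore-forming protein of macrophages, differed by 0.52, or 0.30 with the 3 tissue scores, and overlapped between groups. Il1b, the inflammatory cytokine, ran from 5.93 to 6.88 against 5.20 to 5.79 and differed by 0.81, although by 0.53 with the 3 tissue scores. Irf8, a transcription factor of monocyte and dendritic cell development, differed by 0.35 and did not overlap, with 7.56 to 7.91 against 7.28 to 7.53. C1qa, a complement component made by resident macrophages, averaged 8.13 in exposed and 8.14 in unexposed mice, but its highest values, 8.62 and 8.65, were those of unexposed replicates 1 and 4. Its difference was 0.34 without the squamous arrays, 0.37 without the Ucp1 arrays and 0.47 with the 3 tissue scores (unadjusted p = 0.0035). The other C1q genes, C1qb and C1qc, differed by -0.13 and -0.19 with all arrays and by 0.33 and 0.15 with the 3 tissue scores. Of 12 complement genes, 4 (33.3%, against 51.5% of all genes) differed by more than 0. That list had a median of -0.06, or 0.02 with the 3 tissue scores.

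T cell genes were mostly on the higher side with all arrays, and less so once the tissue transcripts were handled. Of 24 measured, 22 (91.7%) differed by more than 0, against 51.5% of all genes, and the median was 0.27. At an unadjusted p under 0.05, 8 (33.3%) were higher, against 6.12% of all genes, and 0 were lower. With the 3 tissue scores 3 were higher, against 2.98% of all genes, and the median was 0.12. Without the squamous arrays these values were 2, 3.65% and 0.20, and without the Ucp1 arrays 1, 2.4% and 0.17. Zap70 (22637), the kinase that carries the T cell receptor signal, was 7.03 to 7.27 in exposed mice, against 5.78 to 6.98 in unexposed ones, and its difference was 0.68 (SE 0.22). Its dimmer probe sets differed by 0.24 and 0.15. Trgv4, a gamma chain segment of the receptor of gamma-delta T cells, lay between 4.98 and 5.33 against 3.19 to 4.84, with a difference of 0.85 (SE 0.19) that was 0.39 without the Ucp1 arrays. Stat4, which relays interleukin 12, lay between 4.58 and 5.17 against 3.56 to 4.51, with a difference of 0.67 (SE 0.18). Cd3g and Cd6, parts and partners of the T cell receptor complex, and Lag3, an inhibitory receptor of activated T cells, also did not overlap, with differences of 0.64, 0.40 and 0.56, which with the 3 tissue scores were 0.41, 0.23 and 0.72. Another Cd6 probe set differed by 0.06. Zap70, Trgv4, Stat4, Cd3g, Cd6 and Lag3 were named after their values were seen. Cd3e differed by 0.83, or 0.36 with the 3 tissue scores, with wide overlap, from 4.28 to 6.53 in exposed mice, against 4.11 to 5.65 in unexposed ones. The coreceptor Cd8a lay at 3.94 to 4.69 against 3.20 to 4.14, a difference of 0.75 (SE 0.23) that was 0.51 without the squamous arrays, 0.45 without the Ucp1 arrays and 0.40 with the 3 tissue scores. Cd4, the other coreceptor, differed by -0.04 (SE 0.25), and whether the genes differ from each other was not tested.

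Cytotoxic and NK cell genes were higher at an unadjusted p under 0.05 in 6 of 23 cases (26.1%, against 6.12% of all genes) and lower in 0. Their median was 0.26, and it was 0.13 without the squamous arrays, 0.00 without the Ucp1 arrays and 0.04 with the 3 tissue scores. Klrd1, the CD94 receptor of NK cells, differed by 0.71 (SE 0.20) and by 0.38 to 0.41 in the 3 settings that handle the tissue transcripts. Gzma, a granzyme, lay at 6.12 to 6.88 in exposed mice against 5.27 to 6.90, a difference of 0.63 that was 0.12 without the Ucp1 arrays. Prf1, perforin, differed by 0.59 (SE 0.29) and by 0.14 without the Ucp1 arrays. The B cell list had 1 of 20 genes higher (5%, against 6.12% of all genes), the B cell kinase Blk with a difference of 0.44. A dimmer Blk probe set differed by 0.17. Of the 20 B cell genes, 16 (80%, against 51.5% of all genes) differed by more than 0. The list median was 0.18, or 0.14 with the 3 tissue scores and 0.07 without the Ucp1 arrays.

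Genes that most leukocytes express were among those whose groups did not overlap. Arhgdib was 8.61 to 8.91 in unexposed mice, against 9.06 to 9.47 in exposed ones, and differed by 0.53 (SE 0.14). Cd52, a small surface glycoprotein, differed by 0.51, the GTPase Rac2 by 0.63, the actin-binding proteins Lcp1 and Coro1a by 0.42 and 0.52, and the tetraspanin Cd53 by 0.53, and none of these 6 genes overlapped between groups. With the 3 tissue scores they differed by 0.24 to 0.48, Lcp1 least and Rac2 most. They were named after their values were seen, and the choice of genes without overlap fixes their direction. A dimmer Lcp1 probe set differed by -0.03. Among cytokines, Tgfb1, a regulator of inflammation and repair, differed by 0.63 (SE 0.18), or 0.35 with the 3 tissue scores, and Ltb, lymphotoxin beta, also named after its values were seen, by 0.49 (SE 0.19).

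Type I interferon response genes were higher at an unadjusted p under 0.05 in 7 of 18 cases (38.9%, against 6.12% of all genes) and lower in 0. Their median was 0.22, and 15 of 18 differences (83.3%, against 51.5% of all genes) were above 0. The median was 0.06 without the squamous arrays, 0.12 without the Ucp1 arrays and 0.14 with the 3 tissue scores. Irf7 (54123), which amplifies interferon production, was 4.87 to 5.91 in unexposed mice, against 5.56 to 6.50 in exposed ones, a difference of 0.69 (SE 0.19, unadjusted p = 0.000929) that was 0.44 without the Ucp1 arrays. Another Irf7 probe set averaged 5.59 in exposed and 5.47 in unexposed mice, a difference of 0.13. Irf9 (16391), the DNA-binding part of the complex that interferon receptors activate, was 7.39 to 7.49 in unexposed mice and 7.85 to 8.21 in 5 exposed mice, with exposed replicate 3 at 7.41. Its difference was 0.51 (SE 0.13), and 0.63 without the squamous arrays. Usp18 (24110), which removes ISG15 and dampens the receptor, differed by 0.49 (SE 0.13). The antiviral Rsad2 differed by 0.68 (SE 0.30), from 5.26 to 6.90 in unexposed mice, against 5.89 to 7.25 in exposed ones, and by 0.12 without the Ucp1 arrays. Ifit1, named after its values were seen, differed by 0.32 and by 0.03 without the Ucp1 arrays, and Isg15 by 0.23 (SE 0.16) and by 0.01 without the squamous arrays. Counting list members again gave 4 higher genes without the squamous arrays (background 3.65%), 3 without the Ucp1 arrays (background 2.4%) and 4 with the 3 tissue scores (background 2.98%).

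Interferon receptors act through the interferon-stimulated response element, which was searched as the letters GAAANNGAAA on both strands, overlapping matches included, in the 250 bases before each gene start in RefSeq of build GRCm38.p6. Of the 18 interferon genes, 12 had an entry in that promoter table and 6 of the 12 held a match, against 2.98% of all 32851 promoters of this length and 3.39% of the 6577 array genes with an entry. All 12 are listed here by match and by an unadjusted p under 0.05 in limma at day 21. With a match, Ifit1 and Rsad2 were higher at that p, and Ifit3, Isg15, Oas1g and Trim30a were not. Without a match, Irf7, Irf9, Ifih1 and Ifi35 were higher, and Eif2ak2 and Ifit2 were not. Whether match and difference go together was not tested. The promoters of Isg15 (3 matches) and Irf9 (0 matches) are not printed. The 3 below belong to named genes with 2, 1 and 0 matches, so that windows with and without the letters can be compared. They run 5′ to 3′ on the strand of the gene, with matches in capitals.
Ifit1, chr19:34640639-34640888, plus strand: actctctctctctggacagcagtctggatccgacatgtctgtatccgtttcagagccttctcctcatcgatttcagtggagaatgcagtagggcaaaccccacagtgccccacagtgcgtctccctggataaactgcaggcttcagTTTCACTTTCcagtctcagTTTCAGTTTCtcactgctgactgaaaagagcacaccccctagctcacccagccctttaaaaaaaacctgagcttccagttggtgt
Rsad2, chr12:26456453-26456702, minus strand: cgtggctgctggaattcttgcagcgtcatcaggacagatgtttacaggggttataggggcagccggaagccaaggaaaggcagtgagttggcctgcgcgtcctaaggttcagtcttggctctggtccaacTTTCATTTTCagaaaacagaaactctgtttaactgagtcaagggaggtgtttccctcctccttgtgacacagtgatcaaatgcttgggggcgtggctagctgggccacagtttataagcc
Irf7, chr7:141266425-141266674, minus strand: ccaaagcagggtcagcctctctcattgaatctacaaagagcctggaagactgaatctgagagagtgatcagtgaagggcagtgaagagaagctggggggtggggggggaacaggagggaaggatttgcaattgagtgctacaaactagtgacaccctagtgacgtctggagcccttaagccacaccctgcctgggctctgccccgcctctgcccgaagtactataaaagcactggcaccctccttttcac
A match is a string of letters, and its absence from the Irf7 window says only that these letters are not in it. Usp18 had no entry.

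MHC class II genes, which present peptides to CD4 T cells, differed by more than 0 in 13 of 13 cases, by 0.09 to 0.34. The share above 0 was 51.5% over all genes. At an unadjusted p under 0.05, 5 class II genes (38.5%) were higher, against 6.12% of all genes. H2-Aa was 10.23 to 10.51 in unexposed mice, against 10.45 to 10.73 in exposed ones, and differed by 0.28 (SE 0.10), H2-Eb1 by 0.27 (SE 0.11), or 0.43 without the Ucp1 arrays, and the invariant chain Cd74 by 0.14 (SE 0.09). The list kept its median near 0.2, with 0.20 without the squamous arrays, 0.21 without the Ucp1 arrays and 0.16 with the 3 tissue scores. MHC class I genes were higher in 3 of 14 cases (21.4%, against 6.12% of all genes) and lower in 1. Without the squamous arrays 0 of them were higher. Tapbp, the chaperone tapasin that helps load class I, differed by 0.34 and by 0.14 without the squamous arrays. Its dimmer probe sets differed by -0.04 and 0.24. Of 31 Th1 and interferon-gamma response genes, 9 (29%, against 6.12% of all genes) were higher and 0 lower. Their median was 0.15 (0.01 to 0.06 in the 3 tissue settings). Without the squamous arrays, without the Ucp1 arrays and with the 3 tissue scores, 1, 2 and 2 were higher. The shares over all genes there were 3.65%, 2.4% and 2.98%. Il12b, a subunit of interleukins 12 and 23, differed by 0.87 (SE 0.30) and by 0.71 to 0.92 in those settings. Its groups overlapped, at 4.12 to 5.61 in exposed mice against 3.53 to 4.35. The unexposed mean of Il12b was 3.94, against 4.48 at day 7 and 4.43 at day 14.

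**Figure D3:**
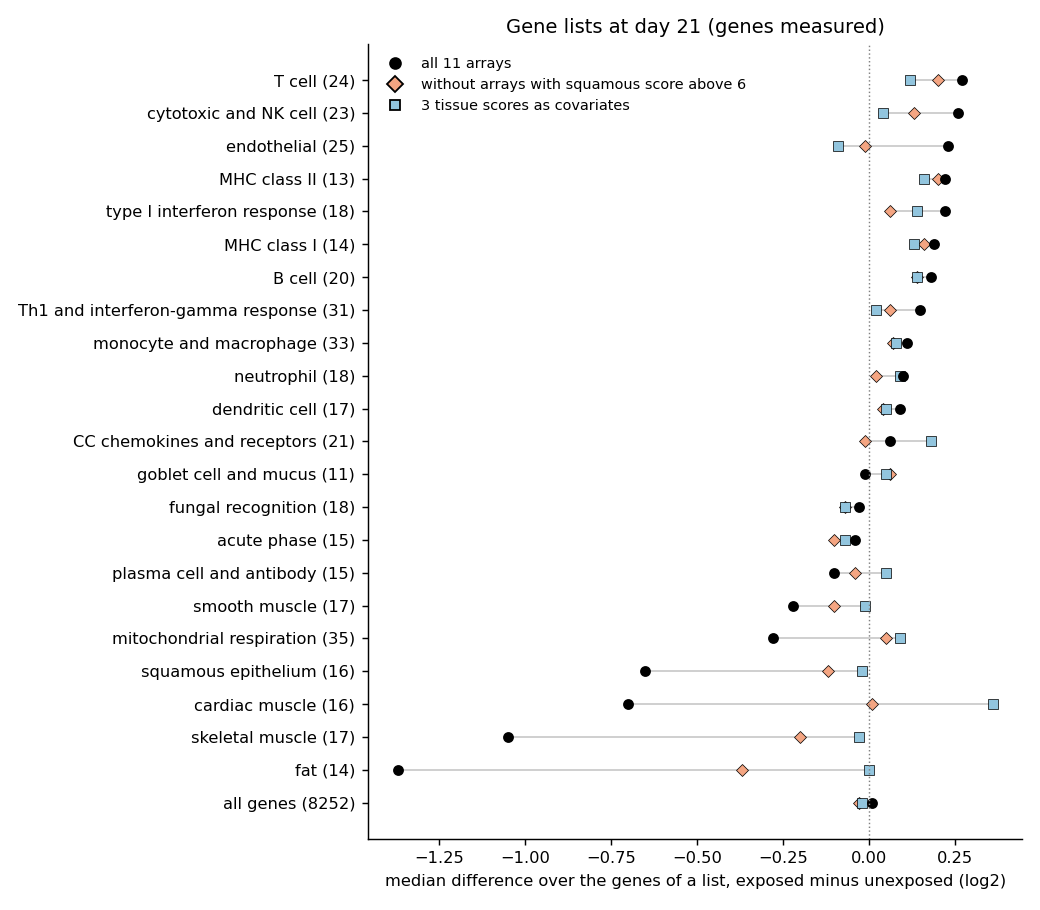
Median difference, exposed minus unexposed on the log2 scale, over the measured genes of each list (number in brackets) with all 11 arrays (circles), without the arrays with squamous scores above 6 (diamonds) and with the 3 tissue scores as covariates (squares). T cell genes had a median of 0.27 with all arrays, and the fat, muscle and squamous lists one of -1.37 to -0.65 that moved toward 0 in the other settings.

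Genes that were much higher in other C57BL/6 mice at days 32 to 41 differed less at day 21, by amounts that depended on the arrays with tissue transcripts. These days come from different experiments, and the difference between them was not tested. Cxcl9, a T cell chemokine that interferon gamma induces, was 3.19 to 3.95 in 5 exposed mice and 5.44 in exposed replicate 1, against 3.17 to 4.44 in unexposed mice. Its difference was 0.23 (SE 0.29) at day 21, or 0.55 to 0.62 in the 3 tissue settings, and 3.64 (SE 0.38) at day 34. Clca1, a secreted product of goblet cells, ran from 4.54 to 8.80 in exposed mice, against 4.82 to 7.30 in unexposed ones, a difference of 0.27 (SE 0.75) that was 0.70 to 0.91 in those settings. Leaving out single arrays of day 21 gave -0.24 to 0.61 for Clca1 and -0.09 to 0.45 for Cxcl9. The lowest values were those without exposed replicate 1, an array that stayed in the 3 tissue settings. Saa3, an acute phase protein, differed by -0.15 (SE 0.25), against 3.95 at day 34. The chemokine Ccl8 differed by 0.36 (SE 0.35), against 3.07 at day 34, and by 0.79 without the squamous arrays, 0.71 without the Ucp1 arrays and 0.85 with the 3 tissue scores (unadjusted p = 0.0187). Ccl2, the main CCR2 ligand, differed by 0.01 (SE 0.25), or 0.27 with the 3 tissue scores, and Lcn2, an iron-sequestering protein, by 0.03 (SE 0.15). Ifng lay at 3.05 to 3.41 over the 11 arrays, near the lower limit of the scale. Of 11 goblet cell, 15 acute phase and 18 fungal recognition genes, 0 were higher and 0 lower at an unadjusted p under 0.05. The proliferation marker Mki67 averaged 5.31 and 5.33. Of 45 cell cycle genes 3 were higher (6.67%, against 6.12% of all genes) and 4 lower.

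Exposed replicate 1 stood out for genes of that later set. Among 79 genes called at day 34 with a difference of at least 1, this mouse had the highest of the 11 levels for 27 (34.2%), against 8.12% of all genes. The next was unexposed replicate 1 with 17 (21.5%, against 11.7% of all genes), and the other 9 arrays were highest for 2 to 8 each. Its levels were 8.80 for Clca1, 6.44 for Saa3, 5.82 for Ccl8 and 10.58 for Chil3, a chitinase-like protein of macrophages, each the highest of the 11 arrays. It also had the highest Igha. Its squamous score was 4.64 and its Ucp1 4.04, so it was not among the arrays set aside above.

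The largest negative differences were those of the tissues named at the start. Ucp1 differed by -3.07 (SE 0.86), the fat list by a median of -1.37 with 0 of 14 genes above 0, skeletal muscle by -1.05, cardiac muscle by -0.70 and squamous epithelium by -0.65. With the 3 tissue scores these medians were 0.00, -0.03, 0.36 and -0.02; the scores were made from genes of the fat, skeletal muscle and squamous lists. Mitochondrial respiration genes, abundant in muscle and brown fat, differed by a median of -0.28 with 1 of 35 above 0, and by 0.05 without the squamous arrays. Smooth muscle genes had a median of -0.22, with 4 of 17 lower, and 0.03 without the Ucp1 arrays. Endothelial genes, with a median of 0.23, were at -0.01 without the squamous arrays.

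Of the 24 genes whose exposed arrays all lay below the unexposed ones, most were dim. Psph (100678), which makes serine from phosphoserine, was 6.05 to 6.35 in exposed mice, against 6.46 to 6.79 in unexposed ones and differed by -0.48 (SE 0.11), or by -0.37 with the 3 tissue scores. Ank1, which anchors the red cell membrane and also occurs in muscle, differed by -0.71 (SE 0.17), or -0.37 without the Ucp1 arrays, and its other probe sets by -0.27 and -0.53. The carboxylesterase Ces1c, at 3.31 to 4.06 against 4.16 to 4.87, and the thiopurine methyltransferase Tpmt, at 3.57 to 4.43 against 4.50 to 5.03, differed by -0.90 and -0.91 close to the floor, and without the Ucp1 arrays by -0.57 and -0.86. Il10, an inhibitory cytokine, lay at 3.37 to 3.85 against 4.07 to 4.65, a difference of -0.74 (SE 0.19), while its other probe set differed by -0.17. Trp63, the basal cell factor of squamous epithelium, differed by -0.77 (SE 0.20) and by -0.51 with the 3 tissue scores. Dio2, which activates thyroid hormone and is high in brown fat, had a difference of -0.54 (SE 0.11, unadjusted p = 2.66e-05), with 4.54 to 5.00 in exposed mice against 4.99 to 5.67, and -0.32 without the Ucp1 arrays. Psph, Ank1, Ces1c, Tpmt and Dio2 were named after their values were seen.

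The same experiment was sampled a week earlier with other mice and other controls, which may have shared cages with those of day 21. At day 14 limma called 22 genes (0.267%), 18 higher and 4 lower. At day 21, 17 of the 18 (94.4%) differed in the same direction, against 51.5% of all genes above 0. An unadjusted p under 0.05 was reached by 12 of them (66.7%), against 6.12% of all genes higher. For the 4 lower genes these counts were 4 and 3, against 48.5% of all genes below 0 and 5.48% lower. Both days share 1 estimate of each gene's spread, so the counts are not independent of the calls at day 14. Igha differed by 1.72 (SE 0.28) at day 14 and 1.57 at day 21, Ccl5 by 0.99 and 1.12, Selplg by 0.56 and 0.58, and Irf7 by 0.80 and 0.69. S100a8 differed by 1.44 and 1.71 without a call at either day. Across 8252 genes, which are not independent replicates, Pearson's r between the differences of both days was 0.47, against 0.14 between days 21 and 7. Squamous and Ucp1 transcripts enter the differences of each day: 1 unexposed array of day 14 and 1 exposed array of day 7 also had squamous scores above 6, and 3 other unexposed arrays of those days had Ucp1 above 6.

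**Figure D4:**
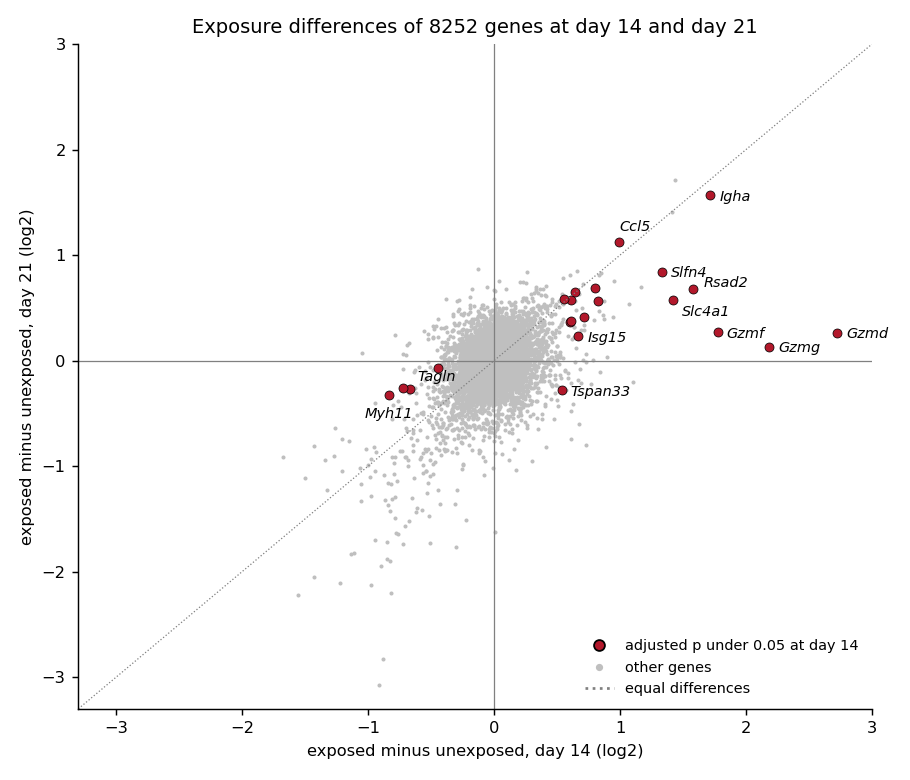
Exposed minus unexposed on the log2 scale at day 14 (horizontal) and day 21 (vertical) for 8252 genes, with the 22 genes called at day 14 in red and a dotted line of equal differences. Igha and Ccl5 lie near the line, and Gzmd, Gzmg and Gzmf far to its right, with day 21 differences of 0.26, 0.13 and 0.27.

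Some genes with a call at day 14 had smaller differences at day 21. Choosing genes by their call at day 14 favours a smaller difference at another day. Gzmd, Gzmg and Gzmf, granzymes of a gene cluster active in stimulated cytotoxic lymphocytes, differed by 2.73, 2.18 and 1.77 at day 14 and by 0.26, 0.13 and 0.27 at day 21. Their levels in exposed mice of day 14 were widely spread, at 3.40 to 8.53, 4.06 to 8.44 and 3.19 to 7.08. Rsad2 differed by 1.58 at day 14 and 0.68 at day 21, and Slc4a1, the anion exchanger of red cells, by 1.42 and 0.58. The smooth muscle genes Myh11 and Tagln differed by -0.83 and -0.72 at day 14 and by -0.32 and -0.26 at day 21. The difference between the effects of days 14 and 21 was itself tested, and limma called 0 genes, with 417 (5.05%) at an unadjusted p under 0.05. For Gzmd that difference was -2.46 (SE 0.79, adjusted p = 0.91), so the days were not shown to differ. Against day 7, 0 genes were called and 476 (5.77%) had an unadjusted p under 0.05, with Igha at 1.70 (SE 0.44, adjusted p = 0.57) and Ccl5 at 1.20 (SE 0.33, adjusted p = 0.57). The smallest p belonged to Grm8, a glutamate receptor at 3.92 to 4.85 on the 11 arrays, against day 14, and to Lpgat1, a lysophospholipid acyltransferase, against day 7.

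**Figure D5:**
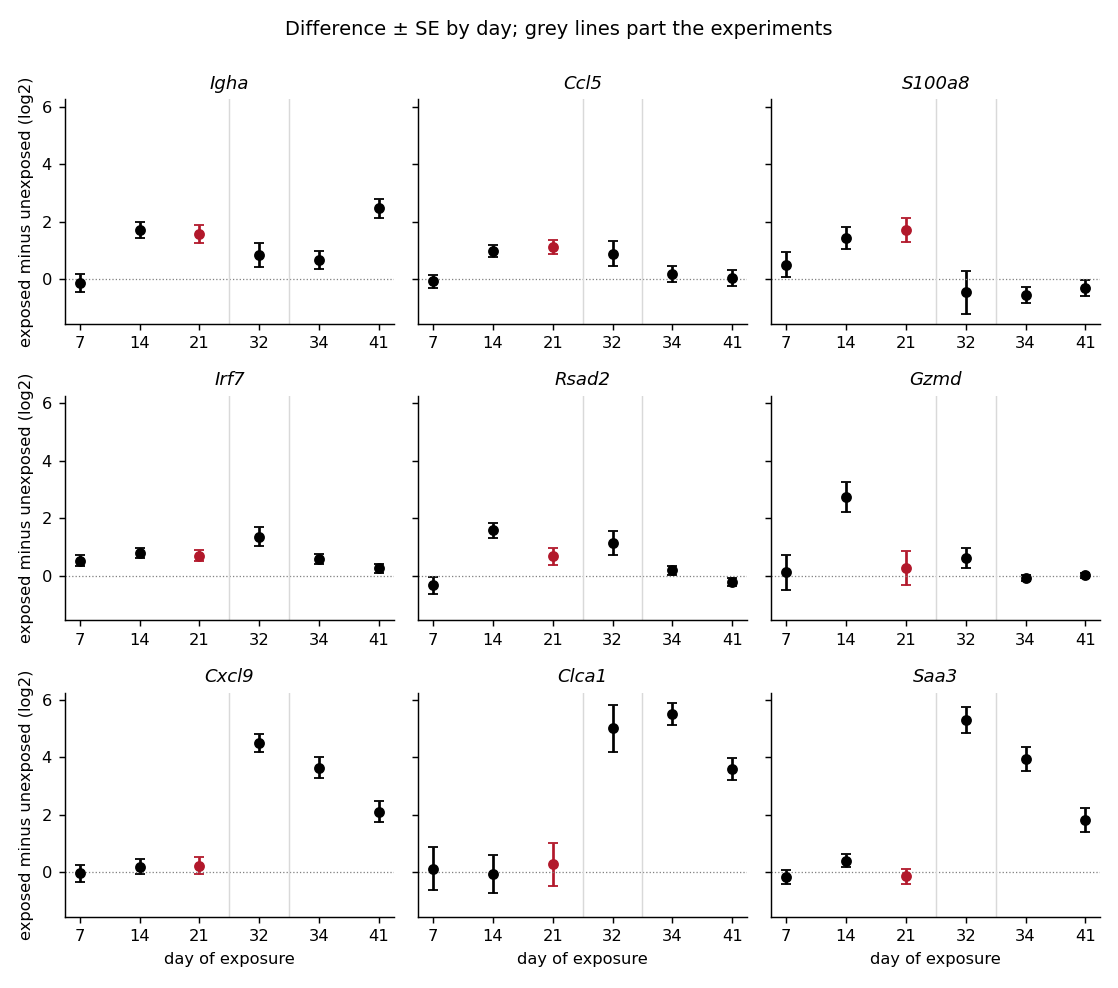
Exposed minus unexposed on the log2 scale with its SE for 9 genes at days 7, 14 and 21 (1 experiment), day 32 (another) and days 34 and 41 (another), with day 21 in red. The SE of day 32 takes its spread from CD40L-KO mice too. Igha, Ccl5 and S100a8 were near or above 1 at days 14 and 21, and Cxcl9, Clca1 and Saa3 below 0.5 until day 21 and above 1.5 from day 32.

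The later days came from other experiments with their own controls. S100a8 differed by -0.54 at day 34 and -0.30 at day 41, on unexposed means of 8.91 and 8.89, against 7.18 at day 21. Ccl5 differed by 0.88 (SE 0.44) at day 32, 0.17 at day 34 and 0.04 at day 41. Its level in the unexposed mice of day 34 ran from 7.17 to 9.51. Igha differed by 0.67 at day 34 and 2.46 at day 41. Its unexposed means there, 8.29 and 8.45, exceeded the 6.55 of unexposed mice at day 21. Of 434 genes called higher at day 34 (5.26%), 271 (62.4%) differed by more than 0 at day 21, against 51.5% of all genes, and 59 (13.6%) were higher at an unadjusted p under 0.05. Of 245 genes called lower at day 34 (2.97%), 103 (42%) differed by less than 0 at day 21, against 48.5% of all genes, and 16 (6.53%) were lower at an unadjusted p under 0.05. Conversely, of the 40 genes without overlap that were higher at day 21, 16 were called higher at day 34 and 3 at day 41 (0.412% of all genes were called higher there). Among them Ctss, a protease of antigen processing that was named after its values were seen, differed by 0.98 at day 34 and 0.23 at day 21.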

How the data were processed

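The 11 arrays of day 21 were taken by title, and limma was fitted to the 37 arrays of C57BL/6 mice of days 7, 14 and 21, so that residual variances rest on 31 degrees of freedom. The deposited table holds linear intensity values of 12487 probe sets for 95 arrays, with 1 missing value; the authors' summarization method was not given in the sources used here. Without the lowest and highest 2% of values each column had a mean of 100.05 to 100.07, so the arrays had been scaled alike before deposit, and no further scaling was applied. The number of arrays limits the precision. An offset of 8, above the 20th percentile of intensity (6.76), was added before log2, which sets a floor of 3. Probe sets were named from a platform annotation and updated through Entrez identifiers to RefSeq (GRCm38.p6): 10854 named 1 gene and were used (10838 found in RefSeq), 396 named several and 1236 none. The brightest probe set stood for each of 8252 genes, of which 2075 had several. No value was imputed, and the incomplete probe set was dropped.

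Contrasts were fitted with lmFit and eBayes (limma 3.58.1, R 4.3.3) and adjusted by Benjamini-Hochberg over all genes, with a threshold of 0.05; plots were made with matplotlib 3.10.9, and counts with numpy 2.4.6 and pandas 2.3.3 under Python 3.11.15. The fit was run on simulated data with independent normal noise and added differences. Those data held no shared tissue transcripts or cage effects, so they do not show how the fit performs with them. Days 32, 34 and 41 were fitted with their own controls. The day 32 fit also took its spread from exposed and unexposed CD40L-KO mice of the same experiment. The named genes were those called, up to 4 called or else the 2 with the smallest p in each list, a set of genes always allowed, and the 3 with the smallest p for each difference between days; others are said to be chosen after their values were seen. The gene members, lists and settings were chosen with earlier results of these data known. Alternatives changed the offset, the filter on dim genes, the normalization, the probe set rule, the arrays fitted, the variance prior and the covariates, added a replicate block, or left out single arrays. Leaving out the squamous arrays or the Ucp1 arrays, the 3 tissue scores together, 15 unexposed arrays as controls and leaving out single arrays of days 7 and 14 were chosen after seeing the data.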

Additional observations from a re-analysis of the deposited data

Results flagged for a closer look

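In 178 groups of 5 or 6 arrays, 18 held an array whose gap to its nearest neighbour exceeded the 95% critical value of Dixon's test; chance alone gives about 1 in 20 groups. Exposed replicate 3 had the highest squamous score of the exposed mice, 6.49 against at most 4.66, the highest muscle score, 6.94 against at most 4.21, the highest Trp63, 4.83 against at most 4.48, and the lowest Napsa, 10.91 against at least 11.23. Exposed replicate 1 was highest for Isg15 at 7.47 against 7.11 to 7.14, for Cxcl9 at 5.44 against 3.19 to 3.95, for Gzmg at 5.53 against 3.77 to 4.28 and for Ucp1 at 4.04 against 3.38 to 3.48. Exposed replicate 2 was highest for Tnf at 4.92 against 3.53 to 3.62, exposed replicate 5 for Ifng at 3.41 against 3.08 to 3.17, and exposed replicate 6 was lowest for Prf1 at 4.16 against 4.94 to 5.33.

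Unexposed replicate 2 was highest for Sftpc, 13.82 against 12.76 to 12.91, and for Scgb1a1, 13.51 against 12.52 to 12.76, and lowest for Stat4, 3.56 against 4.35 to 4.51. Unexposed replicate 5 was highest for S100a9 at 6.71 against 6.13 to 6.25 and lowest for Ccl2 at 4.06 against 4.69 to 4.78. Gzmf was highest in unexposed replicate 3, 3.95 against 3.10 to 3.29, and Tnf in unexposed replicate 4, 4.39 against 3.59 to 3.76. Tnf, Ifng, Gzmf and Stat4 lay close to the floor of 3.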

How the results depend on the processing

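The count of 0 genes called at day 21 became 4 with an offset of 32 (Igha, Ccl5 and Selplg higher, Dio2 lower: 3 and 1), 3 with dim genes left out (3 higher), 2 with only the day 21 arrays (2 higher, S100a8 and S100a9), 5 with all 95 arrays in 1 fit (5 higher: Cytip, Igha, Selplg, Stat4 and Trgv4), 1 with the Gapdh ratio as a covariate (1 higher, Igha), 2 without the squamous arrays (2 lower, Mip and Ssc4d), 1 without the Ucp1 arrays (1 higher, Fgfr3), 1 with the 3 tissue scores (1 higher, Igha) and 3 with 15 unexposed arrays as controls (3 higher: Igha, Ccl5 and Selplg). Leaving out each day 21 array in turn gave 0 to 7 called genes, 0 to 6 higher and 0 to 1 lower; leaving out single arrays of days 7 and 14 gave 0 to 9. The number at an unadjusted p under 0.05, 957, was 558 with dim genes left out (4323 tested), 628 with only the day 21 arrays and 702 with the Gapdh ratio. It was 516 with the squamous score, 561 with the squamous and muscle scores, 547 without the Ucp1 arrays and 581 with the 3 tissue scores. It was 603 to 1333 when single arrays were left out. Of 61 named genes at an unadjusted p under 0.05, 61 kept the sign of their difference whichever single day 21 array was left out (61 to 61). Under the other settings the sign was kept too, except that Ucp1 was at 0.084 without the Ucp1 arrays and that the filter on dim genes left 38 of them to test.

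A replicate block was fitted although the numbers do not pair the mice: same-numbered mice had correlations of 0.30, 0.44, -0.43, -0.29 and -0.20. With the replicate block 0 genes were called at day 21 and 870 had an unadjusted p under 0.05, and the difference between days 21 and 14 called 1 gene, Grm8. That difference also called 1 without the squamous arrays and 0 to 2 with single arrays left out, and the difference between days 21 and 7 called 1 without the Ucp1 arrays and 0 to 1 with single arrays left out. The cause of these moves was not tested. Genes near the floor are measured with little signal over background.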

Other observations

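The 7 alveolar type 1 cell genes all differed by more than 0, against 51.5% of all genes. At an unadjusted p under 0.05, 1 was higher (14.3%, against 6.12% of all genes). Their median was 0.23, and it was -0.02 without the squamous arrays and -0.08 without the Ucp1 arrays. Of 39 matrix and fibroblast genes, 2 were higher and 3 lower, with a median of -0.02. Of 14 alveolar type 2 cell and surfactant genes, 3 (21.4%, against 6.12% of all genes) were higher and 1 lower at an unadjusted p under 0.05. Their median was 0.11 (-0.01 with the 3 tissue scores). Scd2, a fatty acid desaturase of these cells, was 10.60 to 11.01 in exposed mice, against 9.91 to 10.83 in unexposed ones, a difference of 0.53 (SE 0.13) at day 21, or 0.21 without the Ucp1 arrays, and 0.01 at day 14. Another Scd2 probe set averaged 9.63 in exposed and 9.65 in unexposed mice of day 21. The surfactant protease gene Napsa differed by 0.36, or 0.18 with the 3 tissue scores, and Sftpc by 0.00 (SE 0.15). Of 19 club and ciliated cell genes, 0 were higher and 2 lower. Gsta4, a glutathione transferase, was 8.13 and 7.87 in unexposed replicates 1 and 4, the squamous arrays, and 5.11 to 6.49 on the other 9. Mmp12, the elastase of macrophages, lay at 5.73 to 7.34 in exposed mice, against 5.20 to 6.29 in unexposed ones and differed by 0.79 (SE 0.25) at day 21, or 0.44 with the 3 tissue scores, and by 2.38 at day 34. A dimmer Mmp12 probe set differed by 0.20 at day 21. Nfe2, a transcription factor of megakaryocytes, red cell precursors and granulocytes, did not overlap between groups, at 5.82 to 6.36 against 5.28 to 5.75, a gene chosen after its values were seen.

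Cytokine genes were mostly dim. Of 44 cytokines and receptors, 8 (18.2%, against 6.12% of all genes) were higher and 4 lower. Il6 lay at 3.14 to 4.14 in exposed mice, against 3.14 to 3.36 in unexposed ones, Il13 at 3.46 to 3.71 and 3.60 to 4.04, and Il4 and Tnf differed by -0.08 (SE 0.23) and -0.02 (SE 0.20). Of 17 clock genes, 1 was higher, the repressor Nr1d1 at 0.48 (SE 0.19), and 2 were lower, Per2 at -0.27 (SE 0.12) and Per3 at -0.35 (SE 0.12). Per2 also differed by -0.67 at day 14, and the hour of sacrifice is not stated in the labels.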
